A study of Homo sapiens with 6 samples.

Results

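The genes described here belong to the named DNA repair families: the Fanconi (FANC), RAD, XRCC, BRCA, mismatch repair (MSH, MLH, PMS), excision repair (ERCC, NEIL), repair polymerase (POL) and PARP families, the DCLRE1 nucleases, and the kinases and helicases ATM, ATR, CHEK, BLM and WRN. They were picked by symbol alone from the 14884 genes with a named probe set, and antisense symbols (2) were left out. The rule found 52 members: 43 protein-coding genes, 8 transcribed pseudogenes and 1 read-through RNA. RefSeq lists 88 protein-coding symbols of this pattern, and those without a named probe set, which include every FANC, BRCA and ERCC gene, were not analysed here. Where several probe sets carried a symbol, the one with the highest mean stood for the gene.

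RNA came from Hs578T, an established breast cancer cell line of human origin, grown in DMEM with 10% serum and insulin at 0.01 mg/ml. All cells had been transfected by lipid reagent: 3 samples received a non-targeting siRNA (siControl 1 to 3) and 3 received siRNA against CSRP2 (siCSRP2 1 to 3), which encodes a LIM domain protein that bundles actin. The cells were replated 24 h after transfection and harvested 48 h later, and each RNA was read on 1 Affymetrix HuGene 2.0 array. The labels give no siRNA sequence, no number of siRNAs and no rescue, and do not say that replicates were separate cultures, so p-values measure the spread between these samples, which may be technical.

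All values are log2 signals of a probe set, between 1.26 and 13.4 over the arrays, and a difference of 1 is a 2-fold change. No background level was at hand, so the median of all gene means, 2.99, serves only to mark dim probe sets: 12 of the 52 members lay below it. Of 5 measured mesenchymal markers, VIM and FN1 gave 6.98 or more on every array. AXL went down to 6.21 and SNAI2 to 5.93, and ZEB1 lay between 4.47 and 4.88. Of 4 measured luminal markers, the hormone receptor genes ESR1 and PGR gave 2.94 or less. EPCAM lay between 2.91 and 3.63 and GATA3 between 3.37 and 4.22. siControl 3 stood apart: on the first principal component (63.2% of the variance) it lay at -2.05, between the other controls (-31.5 and -31.2) and the siCSRP2 arrays (14.01 to 30.7). The counts of members and of other repair genes that fell are therefore also given without it. Because siControl 3 is the control nearest the siCSRP2 arrays there, leaving it out favours larger differences. Falls over all genes went from 974 to 2193, so a pass in that fit alone adds little. The targeted gene, CSRP2, read 3.69, 4.01 and 4.35 in the controls and 3.25, 3.76 and 4.26 with its siRNA. That difference of -0.26 (95% interval -0.84 to 0.32) missed the threshold (adjusted p from limma = 0.583; exact permutation test, two-sided p = 0.5, the smallest possible being 0.1). CSRP2 was lower in 3 of 3 same-numbered pairs (-0.44, -0.24 and -0.09), which the permutation test does not use, and a fit blocked by replicate gave an adjusted p of 0.188. Single arrays moved the difference: it was -0.0051 without siCSRP2 1, -0.092 without siControl 3, -0.42 without siControl 1 and -0.51 without siCSRP2 3. A reduced target thus gives no check of the sample labels, and the name siCSRP2 stands for arrays labelled that way.

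DNA repair is a set of pathways, each fitted to one kind of lesion. Glycosylases and the PARP1 and XRCC1 scaffold mend damaged bases and nicks, mismatch repair corrects copying errors, and translesion polymerases copy past damage. Broken ends are rejoined by the Ku and XRCC4 route or by recombination on a sister copy, while ATR, CHEK1 and the clamp made of RAD9A, RAD1 and HUS1 signal the damage and hold the cell cycle. Several of these genes are transcribed mainly in cycling cells, because recombination and replication-linked repair are used in S and G2 phase.

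Most members were lower in siCSRP2. Of 52 members, 39 had a negative difference and the median was -0.29 on the log2 scale, against 0.02 over all genes. Bright genes were lower in general: of 6723 coding genes above the median level 4570 had a negative difference, with a median of -0.18, beside 28 of 32 such members with a median of -0.39. The median over all probe sets was 2.76 or less on the siControl arrays and 2.80 or more on the siCSRP2 arrays. The array medians thus differed with the group, while bright genes moved the other way. The part of this in the members' shift was not tested. Of the 52 members, 7 fell at adjusted p 0.05 (limma, adjusted over all genes), none rose and 45 did not pass. Those that fell were the clamp loader RAD17, the mismatch repair gene PMS2, the glycosylase NEIL3, the scaffold XRCC1 and the PMS2 pseudogenes PMS2CL, PMS2P2 and PMS2P5. PMS2P2 and PMS2P5 had identical values on all 6 arrays, so they are 1 measurement under 2 names.

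The share of members that fell, 13.5%, stands beside 6.54% of all genes that fell and 0.8% that rose; over all genes 974 fell and 119 rose, or 666 and 210 after quantile normalization. Of the 43 coding members 4 fell (9.3%), beside 7.91% of all coding genes, of which 0.806% rose. Of coding genes above the median level 13.6% fell, beside 4 of the 32 coding members above it (12.5%). Set against coding genes above the median level, the count of falls with group as the only term is thus near the background. The 2 sets were not matched more closely: their median levels were 4.06 for the 6723 genes and 3.62 for the 32 members. The groups did not overlap, with siCSRP2 lower, for 17 members (32.7%, beside 16.2% of all genes and 19.1% of coding genes), and with siCSRP2 higher for 1 (11.5% of all genes). For the 32 bright coding members that share was 37.5%, beside 29.7% of all such genes.

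Same-numbered arrays deviated together from their groups, though no label ties a number to a plate or day. The block fit takes this pairing from the same values that it tests, so its p-values are less secure. Taking the numbers into the fit raised the count. With the replicate number as a block, 18 members fell and 1, the pseudogene PMS2P1, rose (34.6% and, over all genes, 13.1% fell and 2.67% rose). Of the coding members 14 fell (32.6%, beside 15.8% of all coding genes), and all 14 were among the 32 bright ones (43.8%, beside 26.8% of all bright coding genes). Without siControl 3, 21 members fell and 1 rose, beside 14.7% and 2.87% of all genes; of the coding members 17 fell (39.5%, beside 17.9%), and of the bright ones 16 (50%, beside 29.5%). Without siControl 2 only PMS2 fell, and without siControl 1, siCSRP2 2 or siCSRP2 3 only PMS2 and RAD17 did. Without siCSRP2 1, PMS2, RAD17, PMS2CL and RAD50 fell. The other members that fell without siControl 3 thus fell in no other fit leaving out 1 array. In those fits the limma adjusted p ran up to 0.482 for RAD1, 0.487 for RAD51C and 0.325 for XRCC4.

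**Figure D1:**
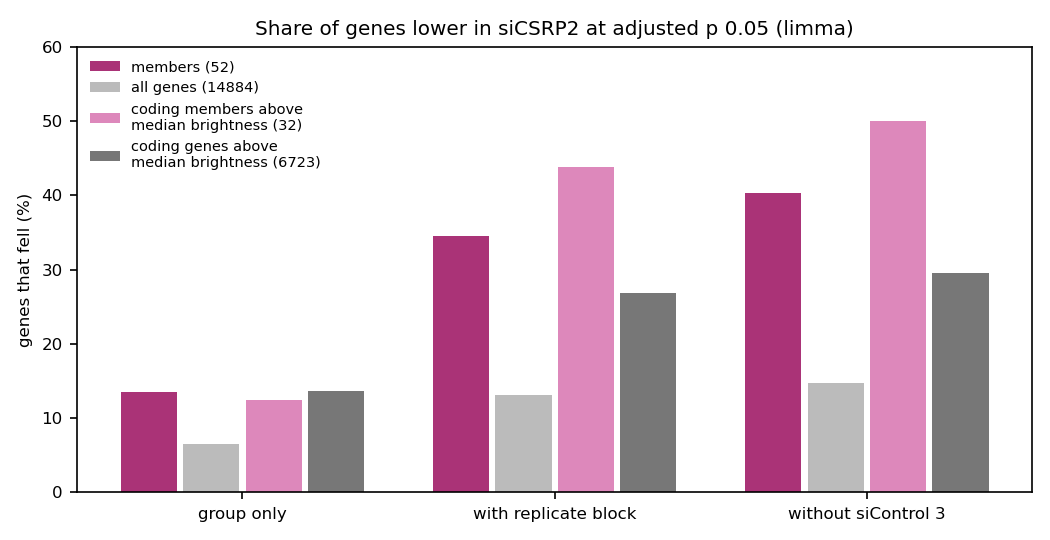
The bars give the percentage of genes lower in siCSRP2 at adjusted p 0.05 (limma) for the 52 members, all 14884 genes, the 32 coding members above the median level and all 6723 such coding genes. With group as the only term the bright members (12.5%) and bright genes (13.6%) are alike in height; with the replicate block they stand at 43.8% and 26.8%, and without siControl 3 at 50% and 29.5%.

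**Figure D2:**
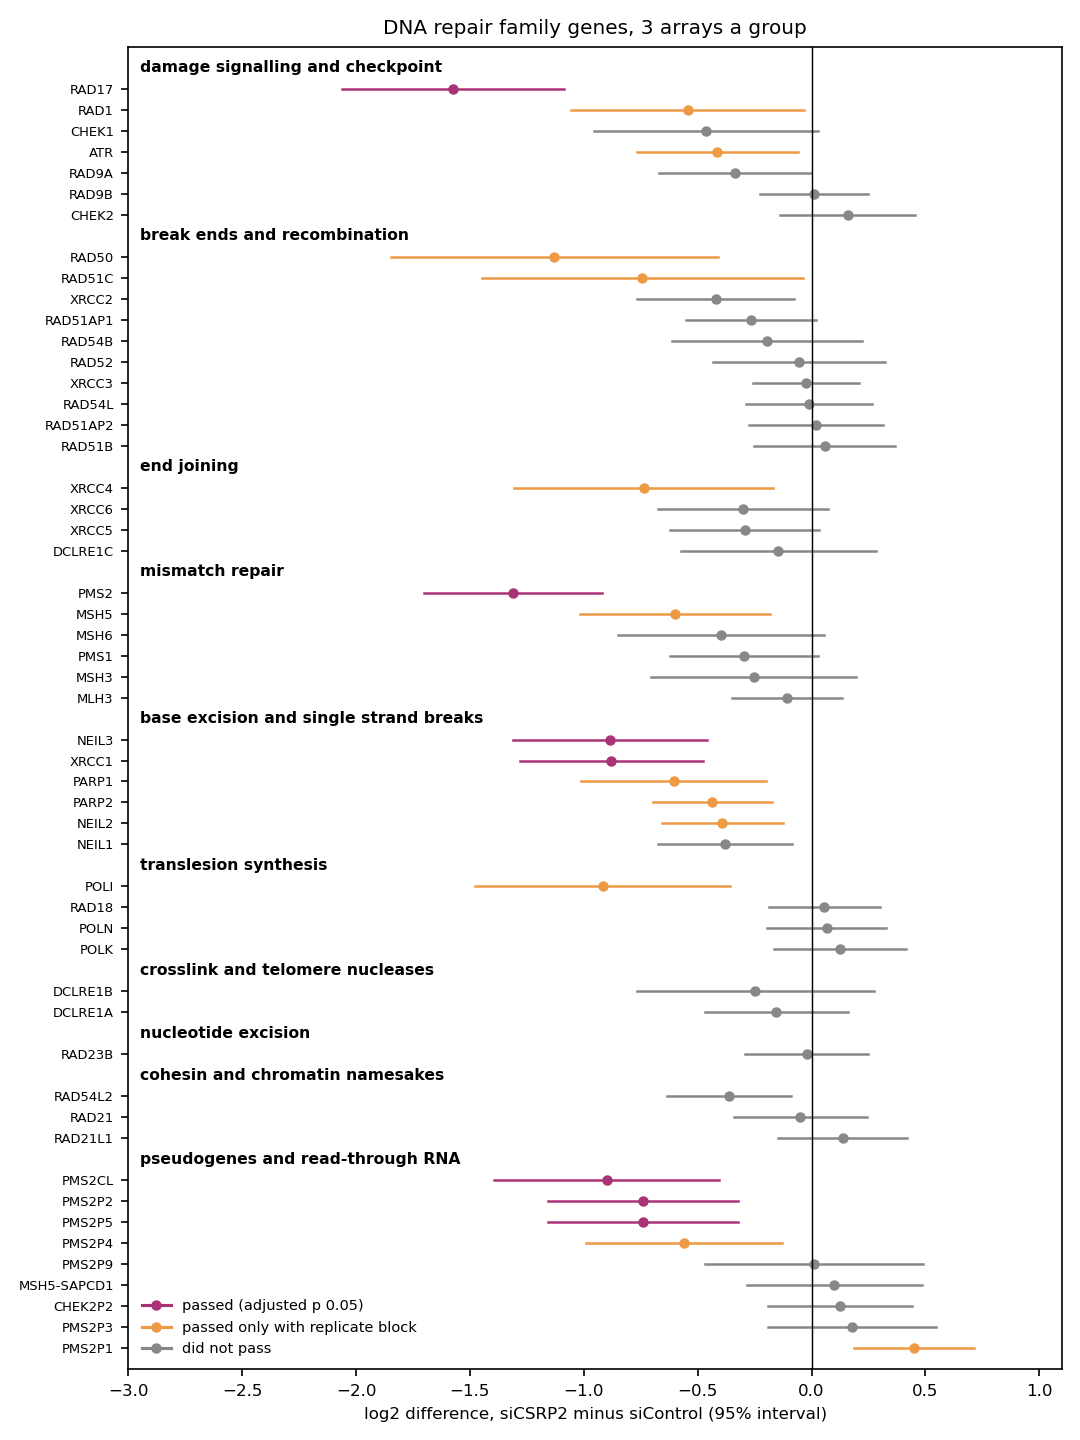
Each point is a member's log2 difference, siCSRP2 minus siControl, with its 95% interval from limma (3 arrays a group), sorted within roles; colours mark members that passed, that passed with the replicate block but not with group alone, and that passed in neither. Points lie between -1.57 (RAD17) and 0.45 (PMS2P1), and 39 of 52 lie left of 0.

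In damage signalling the largest change was in RAD17, which loads the RAD9A, RAD1 and HUS1 clamp onto damaged DNA so that ATR can act. RAD17 measured 5.10, 5.01 and 4.51 on siControl 1 to 3 and 3.72, 3.02 and 3.15 on siCSRP2 1 to 3. Every siCSRP2 array lay below every control, the lowest control being siControl 3. RAD17 fell 2.98-fold (log2 difference -1.57, SE 0.21, 95% interval -2.06 to -1.09, limma adjusted p = 0.00832). It passed in each fit that left out 1 array except the fit without siControl 2 (-1.51, adjusted p = 0.0558), and it measured -1.76 without siControl 3.

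The clamp subunits moved less. RAD1 measured 4.87, 4.66 and 3.97 on the controls and 4.18, 3.91 and 3.78 on siCSRP2, so siControl 3 lay among the siCSRP2 arrays. Its difference of -0.54 (SE 0.22) missed the threshold as fitted (adjusted p = 0.185) and passed with the replicate block (0.0334) and without siControl 3 (-0.81, 0.00657). RAD9A had a difference of -0.34 (adjusted p = 0.206), and its testis paralogue RAD9B lay at 0.01 with an interval of -0.23 to 0.25. HUS1, the remaining clamp subunit and no member by name, measured between 3.89 and 4.29 on all arrays (difference 0.01, interval -0.28 to 0.31).

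The damage signalling kinases gave small differences. ATR, the kinase that answers single-stranded DNA, measured 3.63, 3.79 and 3.30 on siControl and 3.30, 3.22 and 2.96 on siCSRP2. Its difference of -0.41 (SE 0.15) did not pass (adjusted p = 0.144), but did with the replicate block (0.0415) and without siControl 3 (-0.55, 0.0268). CHEK1, the kinase that ATR activates, had a difference of -0.46, with an adjusted p of 0.238 as fitted, 0.0634 with the block and 0.0159 without siControl 3 (-0.70). CHEK2, which answers double-strand breaks, measured 3.41 to 3.48 on siControl and 3.37 to 3.75 on siCSRP2 and did not pass in either fit (difference 0.16, interval -0.14 to 0.45).

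Among genes for break ends and recombination none of 10 members passed with group as the only term, and 2, RAD50 and RAD51C, fell with the block. Without siControl 3 XRCC2 fell as well, for 3 in all. Over all genes 6.54% fell with group as the only term, 13.1% with the block and 14.7% without siControl 3. RAD50, the coiled-coil subunit of the complex that grips broken ends, measured 7.14, 7.16 and 6.41 on siControl and 6.43, 5.72 and 5.18 on siCSRP2. siCSRP2 1 thus lay just above siControl 3, and the other siCSRP2 arrays lay below all controls. The difference was -1.13 (SE 0.31, interval -1.85 to -0.41), 2.19-fold, with an adjusted p of 0.0658 as fitted, 0.00314 with the replicate block and 0.0114 without siControl 3.

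The other subunits of that complex are no members by name. NBN measured 5.89, 5.67 and 4.74 on siControl and 4.07, 4.11 and 3.72 on siCSRP2, and fell by 1.47 on the log2 scale (SE 0.27, limma adjusted p = 0.0196). NBN no longer passed when siControl 1 (-1.24, adjusted p = 0.0706), siControl 2 (-1.35, adjusted p = 0.102), siCSRP2 2 (-1.54, adjusted p = 0.0673) or siCSRP2 3 (-1.35, adjusted p = 0.0837) was left out. The nuclease MRE11 overlapped between groups (difference -0.32, interval -0.71 to 0.06, adjusted p = 0.29, and 0.205 with the block).

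**Figure D3:**
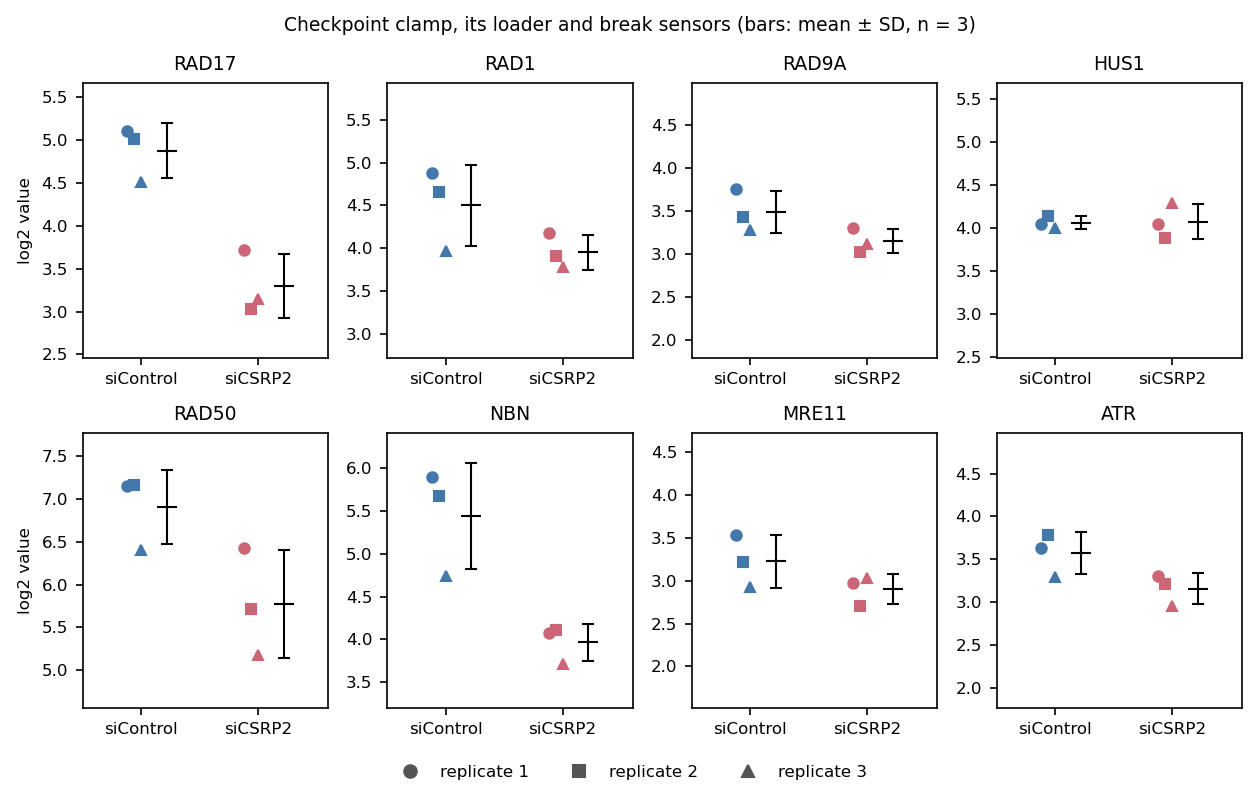
Log2 values on each array for the clamp loader RAD17, the clamp genes RAD1, RAD9A and HUS1, the break-end genes RAD50, NBN and MRE11 and the kinase ATR; points are arrays by replicate number, and bars are group means ± SD (n = 3). Groups separate for RAD17 and NBN, while siControl 3 lies below the highest siCSRP2 array for the other 6 genes.

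The other members of this group take part in strand exchange or its resolution. RAD51C measured 4.28, 4.14 and 2.94 on siControl and 3.03, 3.19 and 2.91 on siCSRP2: siControl 1 and 2 stood well above all other arrays, and siControl 3 lay with the siCSRP2 arrays. Its difference of -0.74 (SE 0.31) had an adjusted p of 0.189, 0.0492 with the block and 0.000946 without siControl 3 (-1.17). XRCC2, its partner in one paralogue complex, was lower on every siCSRP2 array (2.75 to 2.90) than on the controls (2.97 to 3.54), with a difference of -0.42 (adjusted p = 0.129 as fitted, 0.0768 with the block and 0.0175 without siControl 3). RAD51AP1, which stimulates strand exchange, was also lower without overlap (-0.27, adjusted p = 0.242). The remaining 6, RAD51B, RAD51AP2, XRCC3, RAD52, RAD54L and RAD54B, had differences between -0.20 and 0.06, and RAD51B, RAD51AP2, XRCC3 and RAD54L were dim, with means below 2.99.

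In end joining none of 4 members passed with group as the only term, where 6.54% of all genes and 7.91% of coding genes fell. With the block and without siControl 3, 1 fell, beside 13.1% and 14.7% of all genes. XRCC4, the partner of the ligase that seals the break, measured 5.01, 4.41 and 4.30 on siControl and 4.18, 3.99 and 3.33 on siCSRP2, with no overlap. Its difference was -0.74 (SE 0.25, adjusted p = 0.113; 0.00902 with the block and 0.0463 without siControl 3). The Ku subunits XRCC5 and XRCC6, which cap broken ends, differed by -0.29 (interval -0.62 to 0.03) and -0.30 (interval -0.67 to 0.07), and siControl 3 overlapped siCSRP2 1 for both. The nuclease DCLRE1C, Artemis, differed by -0.15 (adjusted p = 0.68).

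All 6 mismatch repair members had negative differences, and 1, PMS2, fell (2 with the block and 3 without siControl 3). These are 16.7%, 33.3% and 50%, beside 7.91%, 15.8% and 17.9% of all coding genes. For coding genes above the median level the shares were 13.6%, 26.8% and 29.5%, though PMS1 (mean 2.72) and MLH3 (2.90) lay below that level. Of the 6723 coding genes above it 4570 had a negative difference. PMS2, the nuclease subunit that cuts the strand holding the error, measured 3.99, 4.23 and 3.91 on siControl and 2.92, 2.90 and 2.37 on siCSRP2. The controls were close together, siControl 3 included, and all lay above the siCSRP2 arrays. PMS2 fell 2.48-fold (log2 difference -1.31, SE 0.17, limma adjusted p = 0.00721), and it was the 1 member that passed in every fit leaving out an array (adjusted p up to 0.0488).

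The other members of this role were less changed. MSH6, which reads single mismatches, measured 4.63, 4.74 and 4.15 on siControl and 4.43, 4.09 and 3.81 on siCSRP2 (difference -0.40, interval -0.85 to 0.06, adjusted p = 0.27). MSH3, which reads larger loops, differed by -0.25, PMS1 by -0.30 and MLH3 by -0.11, and none passed with or without the block, though PMS1 did without siControl 3 (-0.44, 0.0378). MSH5, a meiotic relative, measured 3.91, 4.09 and 3.50 against 3.44, 3.31 and 2.95 (difference -0.60, adjusted p = 0.0849, and 0.0109 with the block), and its dimmer probe set differed by -0.43. The read-through RNA MSH5-SAPCD1, which shares sequence with MSH5, differed by 0.10 (adjusted p = 0.761). The nuclease EXO1, which removes the marked strand and is no member by name, fell by 0.70 (SE 0.17, adjusted p = 0.0416), from 3.55, 3.55 and 2.97 to 2.64, 2.73 and 2.59. Among the fits that left out 1 array EXO1 passed without siControl 3 only (-0.90); without another array its adjusted p ran from 0.0825 (siCSRP2 1) to 0.174 (siControl 2), with 0.157 (siControl 1), 0.112 (siCSRP2 2) and 0.132 (siCSRP2 3) between.

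PMS2 has many near-identical pseudogene copies on chromosome 7, and probe sets of such copies can take up each other's RNA, so the values of this family are uncertain as to source. The copies did not move as one. PMS2CL measured 5.04, 5.86 and 5.44 on siControl and 4.84, 4.50 and 4.30 on siCSRP2, and fell by 0.90 (SE 0.22, adjusted p = 0.0437). The probe set shared in value by PMS2P2 and PMS2P5 measured 5.85, 5.97 and 5.49 against 5.17, 5.24 and 4.68, and fell by 0.74 (adjusted p = 0.0463). PMS2P4 differed by -0.56 (adjusted p = 0.112; 0.0277 with the block). In the other direction, PMS2P1 measured 3.13, 3.00 and 3.15 on siControl and 3.67, 3.39 and 3.58 on siCSRP2, without overlap (difference 0.45, adjusted p = 0.052, and 0.0257 with the block).

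PMS2P3 (0.18) and PMS2P9 (0.01) overlapped between groups. A dimmer probe set of PMS2P5 differed by 0.18, so the direction for that gene depends on the probe set. PMS2CL and PMS2P2 did not pass after quantile normalization (-0.71, adjusted p = 0.088, and -0.58, 0.0948) or cyclic loess (-0.75, 0.0729, and -0.60, 0.0876). Of the fits leaving out 1 array, PMS2CL passed without siControl 3 and without siCSRP2 1 and PMS2P2 without siControl 3 only; otherwise their adjusted p ran up to 0.152 and 0.189, both without siControl 2. PMS2 itself passed in all of these settings.

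**Figure D4:**
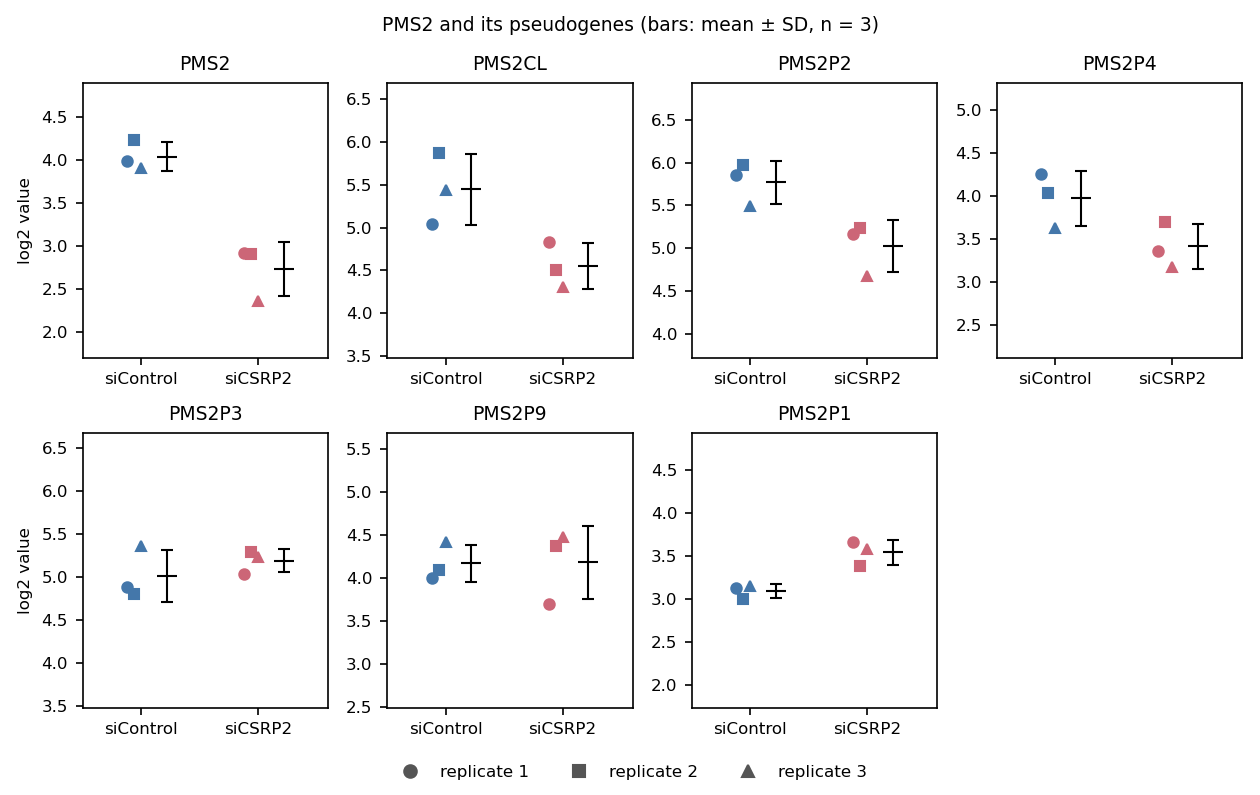
Log2 values on each array of PMS2 and of 6 of its pseudogenes (PMS2P5 has the values of PMS2P2); points are arrays by replicate number and bars are group means ± SD (n = 3). PMS2, PMS2CL and PMS2P2 are lower on every siCSRP2 array, PMS2P4, PMS2P3 and PMS2P9 overlap, and PMS2P1 is higher on every siCSRP2 array.

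In base excision and single-strand break repair all 6 members were lower on every siCSRP2 array than on every control. The same held for 16.2% of all genes and 29.7% of coding genes above the median level. Of the 6 members 2, NEIL3 and XRCC1, fell (adjusted p 0.05). With the replicate block and without siControl 3, 5 fell, NEIL1 being the exception in both. Of all coding genes 7.91% fell, 15.8% with the block and 17.9% without siControl 3. Of coding genes above the median level, where NEIL1 does not lie, 13.6% fell, 26.8% with the block and 29.5% without siControl 3. NEIL3, a glycosylase of cycling cells that also unhooks crosslinks, measured 4.11, 4.39 and 3.68 on siControl and 3.21, 3.35 and 2.97 on siCSRP2. It fell 1.84-fold (log2 difference -0.88, SE 0.19, limma adjusted p = 0.0292). XRCC1, the scaffold that gathers ligase and polymerase at a nick, measured 5.82, 5.85 and 5.27 against 4.74, 4.97 and 4.60, and also fell 1.84-fold (-0.88, SE 0.18, adjusted p = 0.0244).

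Both calls depended on the arrays used. NEIL3 and XRCC1 passed without siControl 3 (-1.07 for each, adjusted p = 0.00205 and 0.00151). With another array left out, the adjusted p for NEIL3 was 0.108 (siControl 1), 0.117 (siControl 2), 0.0586 (siCSRP2 1), 0.0728 (siCSRP2 2) and 0.111 (siCSRP2 3). For XRCC1 it was 0.1 (siControl 1), 0.117 (siControl 2), 0.0567 (siCSRP2 1), 0.062 (siCSRP2 2) and 0.0978 (siCSRP2 3). The differences then stayed between -0.97 and -0.72 for NEIL3 and between -0.98 and -0.78 for XRCC1.

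The poly-ADP-ribose polymerases PARP1 and PARP2 sense the nick and recruit XRCC1. PARP1 measured 4.48, 4.58 and 3.89 on siControl and 3.79, 3.69 and 3.64 on siCSRP2, so the siCSRP2 arrays were close together and siControl 3 lay just above them. Its difference was -0.61 (SE 0.18, adjusted p = 0.079; 0.0247 with the block and 0.0024 without siControl 3). PARP2 measured 4.15, 4.16 and 3.89 against 3.61, 3.61 and 3.67 (difference -0.44, SE 0.11, adjusted p = 0.0559, and 0.0412 with the block). The glycosylase NEIL2 differed by -0.39 (adjusted p = 0.0804, and 0.0492 with the block). NEIL1 differed by -0.38 (adjusted p = 0.113, and 0.0589 with the block), at a dim level of 2.18 to 2.79.

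Genes of the same pathway outside the naming rule were examined too. The endonuclease APEX1, which cuts at the site a glycosylase leaves, measured 6.39, 6.26 and 5.20 on siControl and 5.04, 4.85 and 4.41 on siCSRP2. Its difference of -1.18 (SE 0.30) had an adjusted p of 0.0502 as fitted and of 0.00231 with the block. The glycosylases UNG (-0.49), SMUG1 (-0.43) and MBD4 (-0.45) did not pass with group as the only term and passed with the block, at adjusted p = 0.0251, 0.0347 and 0.0271. Without siControl 3, SMUG1 (0.0167) and MBD4 (0.0194) passed and UNG (0.0521) did not. The glycosylase TDG lay at -0.01 (interval -0.32 to 0.31), and OGG1, NTHL1, MUTYH and MPG, with differences of -0.27, -0.19, -0.41 and -0.34, did not pass in either fit. MUTYH and MPG were lower without overlap, and of these genes MUTYH alone passed without siControl 3 (-0.48, limma adjusted p = 0.0274).

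Translesion synthesis was mixed. POLI, an error-prone polymerase that inserts opposite damaged bases, measured 4.46, 3.98 and 3.58 on siControl and 3.40, 3.20 and 2.68 on siCSRP2, without overlap. The difference was -0.92 (SE 0.25, 1.89-fold), with an adjusted p of 0.0592 as fitted, 0.00231 with the block and 0.00808 without siControl 3. The polymerases POLK (0.12) and POLN (0.07) and the ubiquitin ligase RAD18 (0.06) did not pass in either fit. RAD18, which marks the sliding clamp to call these polymerases, stayed between 3.85 and 4.05 on all arrays (interval -0.19 to 0.30), and its sign turned after median centring (-0.03). The helicase-like ligase HLTF, which extends the RAD18 mark and is no member by name, measured 6.63, 6.71 and 6.11 on siControl and 4.91, 4.92 and 4.64 on siCSRP2. HLTF fell 3.16-fold (log2 difference -1.66, SE 0.17, adjusted p = 0.00316) and passed in every fit leaving out 1 array; the mean of its probe sets fell by 0.85 (adjusted p = 0.0121).

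The members left had small differences. DCLRE1B, a nuclease at telomeres and crosslinks, measured 4.31, 4.38 and 3.95 against 4.50, 3.80 and 3.59 (difference -0.25, interval -0.77 to 0.27), and the crosslink nuclease DCLRE1A differed by -0.15. RAD23B, which stabilises the damage sensor of nucleotide excision repair, stayed between 6.86 and 7.19 (difference -0.02, interval -0.29 to 0.25). RAD21, a cohesin subunit that holds sister chromatids together, stayed between 5.50 and 5.91 (-0.05, interval -0.34 to 0.25), and its meiotic relative RAD21L1 differed by 0.14. RAD23B and RAD21 turned to 0.05 and 0.10 after quantile normalization. RAD54L2, a chromatin remodelling helicase named after RAD54, was lower without overlap (3.27 to 3.48 against 3.62 to 3.89; difference -0.36, adjusted p = 0.106). CHEK2P2, a CHEK2 pseudogene, differed by 0.13 (adjusted p = 0.625).

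Repair genes outside the family names were taken from a list by function. Of 93 such genes, 56 had a named probe set, and of these 3 (HLTF, NBN and EXO1) fell, none rose and 53 did not pass, with a median difference of -0.26; 46 of the 56 differences were negative. The share of falls, 5.36%, stands beside 6.54% of all genes. With the replicate block 14 fell (25%, beside 13.1%), and without siControl 3, 17 (30.4%, beside 14.7%). Those added by the block include PALB2 (-0.56, adjusted p = 0.0191), which links the BRCA proteins, and BRIP1 (-0.60, 0.0499), UBE2T (-0.79, 0.0293) and USP1 (-0.68, 0.0133), a helicase and the ubiquitin enzymes of the Fanconi pathway. BARD1, the partner of BRCA1, was lower on every siCSRP2 array and passed in neither fit (-0.25, adjusted p = 0.188, and 0.166 with the block). Of those that were higher, UBE2B, the conjugating enzyme that works with RAD18, measured 4.10, 4.04 and 4.04 on siControl and 4.43, 4.43 and 4.32 on siCSRP2 (0.33, adjusted p = 0.0842). DTX3L, a ubiquitin ligase that works with a PARP family protein, is not among these 56 genes but on the list of interferon-stimulated genes. It overlapped (-0.39, adjusted p = 0.352, and 0.115 with the block), but passed without siControl 3 (-0.68, 0.0112).

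Proliferation markers were lower in siCSRP2 as well. Of 11 measured markers (such as TOP2A, PCNA, MCM2 and TYMS) 8 fell (10 with the block and 10 without siControl 3), none rose and 3 did not pass, with a median difference of -1.20, and E2F1 lay at -0.10. As the median deviation from the siControl mean, the markers stood at 0.23, 0.29 and -0.55 on siControl 1 to 3 and at -1.24, -0.89 and -1.31 on siCSRP2 1 to 3. The 52 members stood at 0.08, 0.08 and -0.19 and at -0.19, -0.29 and -0.40. Within siCSRP2 the order differed: siCSRP2 1 was the highest array for the members and siCSRP2 2 for the markers. On siControl 3, both sets lay below the other controls, and it was the lowest control for 37 of the 52 members and for all 11 markers. The same held for 6138 of all 14884 genes and for 3744 of the 6723 coding genes above the median level. The part of the markers in the result was not tested. In RNA from whole cultures, fewer cycling cells and less RNA per cell cannot be told apart.

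The order of arrays differed between roles. Base excision genes stood at 0.08, 0.18 and -0.28 on the controls and at -0.49, -0.58 and -0.58 on siCSRP2. Mismatch repair genes stood at 0.09, 0.21 and -0.31 and at -0.14, -0.35 and -0.59, and end joining genes at 0.19, 0.05 and -0.25 and at -0.09, -0.38 and -0.53. In mismatch repair and end joining siControl 3 lay below siCSRP2 1, while in base excision it lay above all siCSRP2 arrays. The difference between roles was not tested.

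**Figure D5:**
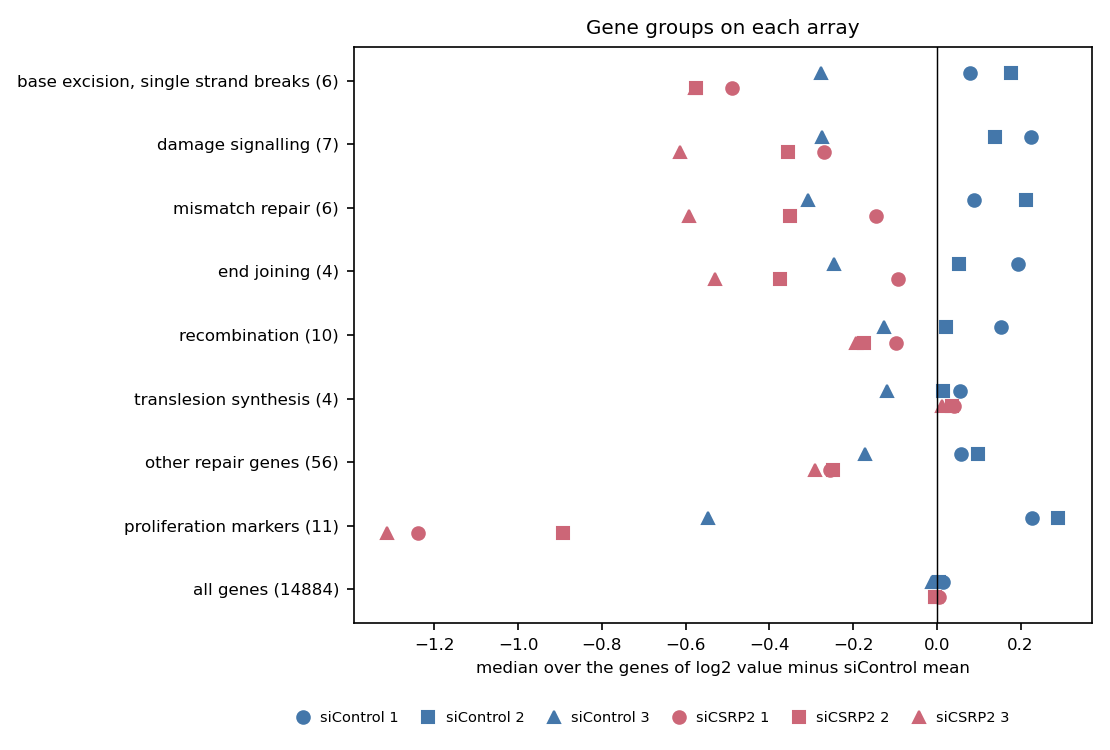
For each gene group (number of genes in brackets) a point gives 1 array's median deviation in log2 units from the siControl mean; colours mark the groups and shapes the replicate numbers. siControl 3 lies left of the other controls in each group, for all genes by little since all arrays lie near 0, and the proliferation markers span the widest range, from 0.29 to -1.31.

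Promoters were read to see what the members share in sequence. RefSeq windows (GRCh38.p14, 250 bases before to 50 after the start, the start farthest upstream for each gene) were found for 40 members, 39 of them coding. An E2F-type site, taken as TTTCCCGC, TTTGGCGC, TTTCGCGC, TTCCCGCC or TTGGCGGG on either strand (some of these can overlap), was present in 10 of 39 coding members (25.6%), beside 8.22% of 15843 coding genes. The CCAAT box, bound by NF-Y, was present in 19 of 39 (48.7%, beside 36.4%), the CHR element, taken as TTTGAA or TTTAAA, in 5 of 39 (12.8%, beside 19.7%), and the interferon-stimulated response element in 1 of 39 (2.56%, beside 3.18%). Those with an E2F-type site were MSH3, MSH5, MSH6, PARP2, POLI, RAD51AP1, RAD54L, XRCC2, XRCC3 and XRCC6.

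None of the 4 coding members that fell held one of these E2F letters in the window; 3 held CCAAT, and 2 of those (NEIL3 and XRCC1) also TTTGAA, a pairing seen in 8.05% of coding genes. These are matches of letters and not measured binding. The upstream stretches of NEIL3 and PMS2 are shown because these members fell and no other gene's span covers the stretch printed. Each ends at the base before the start site, 5′ to 3′ on the gene's strand, with CCAAT (or ATTGG, the same box on the other strand) and TTTGAA in capitals. That of NEIL3 lies at chr4:177309624-177309873 on the plus strand; CCAAT begins 223 and TTTGAA 24 bases before the start. That of PMS2 lies at chr7:6009107-6009271 on the minus strand and is 165 bases long, since the neighbouring gene AIMP2 begins beyond it; its upstream boxes begin 120 and 75 bases before the start.
NEIL3: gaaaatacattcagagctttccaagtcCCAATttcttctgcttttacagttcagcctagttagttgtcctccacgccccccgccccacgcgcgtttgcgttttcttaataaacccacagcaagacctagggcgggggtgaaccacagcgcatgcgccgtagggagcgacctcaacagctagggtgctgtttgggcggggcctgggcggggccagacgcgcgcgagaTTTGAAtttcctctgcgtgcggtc
PMS2: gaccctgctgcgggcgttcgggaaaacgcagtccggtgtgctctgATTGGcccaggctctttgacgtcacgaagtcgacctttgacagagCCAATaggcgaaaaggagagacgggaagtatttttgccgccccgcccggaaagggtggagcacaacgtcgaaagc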

How the data were processed

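The authors deposited 1 log2 value per probe set and array (53617 probe sets, 6 arrays); base 2 was judged from the range. The software Partek appears, per the submitters' processing notes, without its role. How background was corrected and arrays normalized, and the build, is not given in the sources used here. Annotation of the platform named 16098 probe sets with 1 symbol (14884 genes). The test was limma's (version 3.58.1, R 4.3.3; lmFit, eBayes, group as the only term, Benjamini-Hochberg over all genes, threshold 0.05, two-sided), checked on simulated data. Levels are not compared between probe sets. Members and lists were chosen with earlier results of these data known. Named are members that passed in either fit, the brightest and smallest-p member of each role, non-overlapping members differing by at least 0.5, other repair genes that passed, complex partners (BARD1, DTX3L, PALB2) and CSRP2; all other members and repair genes, such as HUS1, MRE11, APEX1, UNG, UBE2B and USP1, were chosen after their values were seen. Replicate numbers are shared between groups. Across genes, same-numbered arrays deviated together from their groups, with correlations of 0.30, 0.19 and 0.32 (-0.26 to 0.05 for other numbers). Deviations within a group cancel out, so these correlations depend on one another. In the block fits each number was treated as a pair. This rests on the values, as no label ties a number to a plate or day. Other scalings, probe set rules, filters on dim genes, variance settings and leaving out each array were tried. Listed markers of p53, interferon and other cell types served as checks: of 3 measured p53 targets 1 rose (PMAIP1), of 8 interferon-stimulated genes 3 rose and 1 fell, of 5 mesenchymal markers 4 fell, none of 4 luminal markers passed, nor did the 1 endothelial marker measured, and immune markers were not analysed here.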

Additional observations from a re-analysis of the deposited data

How the results depend on the processing

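The members' median difference stayed negative in all 18 alternatives (-0.42 to -0.21). The counts moved. In the order members that fell, coding members that fell, other repair genes that fell, all genes that fell and all genes that rose, the replicate block gave 18, 14, 14, 1950 and 398, quantile normalization with the block 12, 10, 11, 1486 and 524, cyclic loess with the block 12, 9, 11, 1517 and 531, median centring with the block 24, 20, 20, 2673 and 289, and array weights 21, 17, 19, 2327 and 597; in each of these 5 settings 1 member (PMS2P1) rose. Median centring alone gave 11, 8, 10 and 1471 falls. Quantile normalization and cyclic loess alone left 4 members that fell (RAD17, PMS2, NEIL3 and XRCC1) and gave 210 and 197 rises over all genes. 1 other repair gene rose in these 2 settings, in both with the block and with array weights, and 5 fell with trend and robust variance. Leaving out 1 array gave 1 to 21 members that fell, 0 to 1 that rose, 1 to 17 coding members and 1 to 17 other repair genes that fell, and 86 to 2193 falls and 5 to 427 rises over all genes. Over all 52 members the number with a negative difference ran from 38 to 45 in the alternatives that kept them all, against 39 as reported, so signs near 0 turned. Among the members followed singly by the naming rule, signs turned for 3, none of which passed: RAD23B (0.051 after quantile normalization, 0.068 after cyclic loess, each also with the block, 0.00070 with array weights, and from -0.12 without siControl 2 to 0.0038 without siControl 1 and 0.048 without siControl 3), RAD21 (0.10 and 0.084 in the same scalings, 0.021 with array weights, and from -0.14 without siControl 2 to 0.069 without siControl 3) and RAD18 (-0.029 after median centring, with and without the block). The cause was not tested. With 3 arrays a group precision is low, and near background a signal difference may be smaller than that of the RNA.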
